A study of Rattus norvegicus with 15 samples.

Results

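The genes described here encode voltage-gated calcium channel subunits, and they were measured in rat midbrain neurons that had been cut out of tissue by laser from 2 adjacent regions. A list of 10 genes was taken (Cacna1a, Cacna1b, Cacna1c, Cacna1d, Cacna1e, Cacna1g, Cacna2d1, Cacnb2, Cacnb3 and Cacnb4), out of 4736 gene symbols on the array. All 10 had at least 1 probe set, a group of short probes that gives 1 signal, and together they had 21. The series held 8 arrays of total RNA from neurons of the substantia nigra pars compacta (SNc), numbered 1 to 8, and 7 arrays from neurons of the ventral tegmental area (VTA), numbered 1 to 6 and 8. Parkinson's disease stands in the series title, and the design sets SNc against VTA neurons. The labels name no treatment, strain, age or number of animals. They also do not say how the neurons were recognised. As the animals behind each array are not given, p-values measure the spread between arrays, which may in part be technical.

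A voltage-gated calcium channel opens on depolarisation and lets calcium into the cell. Its pore is a single large alpha1 subunit, which decides the channel type. Genes of the Cacna1 family encode these pores, as L-type (Cacna1c, Cacna1d), P/Q-type (Cacna1a), N-type (Cacna1b), R-type (Cacna1e) or T-type (Cacna1g) channels. Beta subunits (Cacnb genes) bind the pore on the cytoplasmic side, bring it to the membrane and shape its gating. Alpha2delta subunits (Cacna2d genes) sit on the outer face and raise the number of channels at the surface, and that of Cacna2d1 binds gabapentin. Dopamine neurons fire as pacemakers, without synaptic drive, and L-type channels with the Cacna1d pore, Cav1.3, open at the low voltages reached between their spikes. Calcium entry through them has been studied as a load on SNc neurons in Parkinson's disease.

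The captures of both regions had bright signals for dopamine neuron genes. Th, tyrosine hydroxylase, averaged 6615 ± 527.2 in SNc and 7193 ± 769.7 in VTA, and Slc6a3, the dopamine transporter, 7245 ± 602.7 in SNc and 5782 ± 978.8 in VTA (SD, n = 8 and 7). Of 11 dopamine neuron markers 1 was called different between the regions (limma, adjusted p under 0.05), Gch1, which was higher in VTA. Over all probe sets tested, 1.98% were called, a share to set beside each marker count given here. The dopamine neuron markers summed to between 27810 and 34760 in SNc and between 23880 and 34420 in VTA. Other cell types also left signal. The oligodendrocyte markers summed to between 5535 and 9787 over the SNc arrays and between 7871 and 11560 over the VTA arrays, and 0 of 6 tested were called. The astrocyte markers summed to between 4299 and 6534 in SNc and between 4453 and 7171 in VTA, with 0 of 7 called. The GABA neuron markers summed to between 924.8 and 1859 in SNc and between 560.4 and 1122 in VTA, and 2 of 4 tested, Gad1 and Pvalb, were higher in SNc. Microglia, vessel and serotonin neuron markers summed to at most 226.7, 689.1 and 145.4 on any array, and 0 of the 9 tested were called. The only glutamate neuron marker with a probe set, Slc17a7, was at most 7.346. Signal from cells around a captured neuron cannot be told apart from its own in these data, nor can fewer cells of a type from less RNA per cell. The part of these markers in the calcium channel values was not tested. Median signal per array lay between 38.00 and 45.27 in SNc and between 42.32 and 46.84 in VTA. By its median correlation with the rest, 0.938, VTA 5 was the array least like the others, followed by VTA 8 at 0.945. The 3' to 5' signal ratio of the actin control probe sets ran from 6.135 to 15.37 in SNc and from 7.404 to 9.43 in VTA. It was highest in SNc 5 (15.37) and SNc 6 (12.17). The same ratio for Gapdh was highest in VTA 8 (6.816) and VTA 5 (5.66). These ratios were thus uneven over the arrays, and those of actin and Gapdh were highest on different arrays. Whether RNA quality differed, and its part in the calcium channel values, was not tested.

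None of the calcium channel genes differed between SNc and VTA past the threshold. Signals were compared as log2(signal + 16), an offset that shrinks the differences of dim probe sets. Before the test, a filter removed the dimmest 40% by mean on that scale, a limit that corresponds to a signal of 26.3. Of the 21 calcium channel probe sets, 12 were kept, covering 9 of the genes, and 9 were left out, among them all 5 probe sets of Cacna1d. limma called 0 of the 12 at an adjusted p of 0.05 (Benjamini-Hochberg over the 5244 probe sets tested), where it called 1.98% of all probe sets tested. The exact Wilcoxon test also called 0 of the 12. At an unadjusted p under 0.05 there were 3 of 12, where 15.4% of all probe sets tested had one. They were a probe set each of Cacna2d1, Cacna1b and Cacnb4, of which that of Cacnb4 passed the filter only through SNc, where it was higher. In 0 of the 12 did the SNc and VTA arrays not overlap, against 0.858% of all tested. The difference, SNc minus VTA, was positive in 7 of the 12 and negative in 5, with a median of 0.06, and over all tested probe sets 43.3% were positive with a median of -0.04. Without the filter, limma called 0 of all 21 (1.16% of all 8740 probe sets), and 4 had an unadjusted p under 0.05 (13.5% of all).

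**Figure D1:**
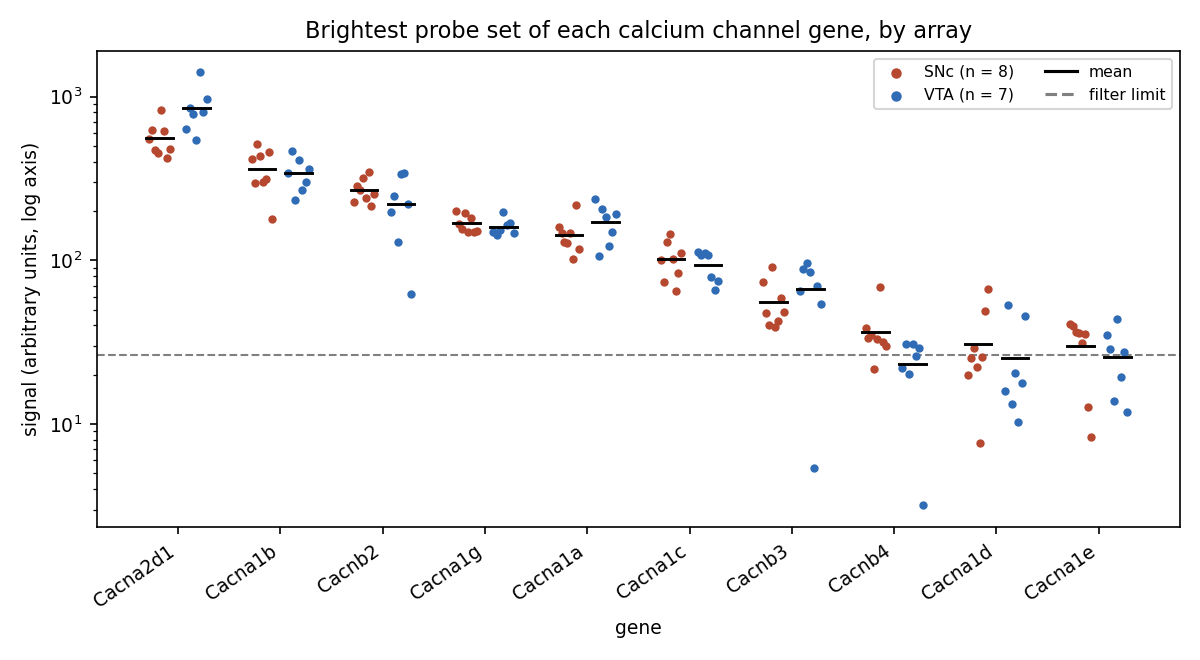
Signal (log axis, arbitrary units) of the brightest probe set of each of the 10 genes on every array, with SNc arrays (n = 8) left of VTA arrays (n = 7), a bar at each mean and a dashed line at the signal of 26.3 that corresponds to the filter. The SNc and VTA points overlap for every gene, and Cacnb4, Cacna1d and Cacna1e lie around the dashed line.

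Ranked by the mean signal of the brightest probe set over all arrays, the order was Cacna2d1 (695.3), Cacna1b (352.2), Cacnb2 (245.8), Cacna1g (164.7), Cacna1a (156.3), Cacna1c (97.88), Cacnb3 (60.43), Cacnb4 (30.28), Cacna1d (28.12) and Cacna1e (28.06). Brightness depends on the probes as well as on the transcript, so this is an order of probe sets and not of transcript amounts. Cacna2d1 was brighter than 92.7% of the probe sets that are not controls, and Cacna1d than 39.2%. Each of the first 7 was brighter than the next in 11 to 14 of the 15 arrays. The last places were less ordered, since Cacnb4 was brighter than Cacna1d in 10 arrays and Cacna1d brighter than Cacna1e in 4. By mean signal, the regions gave the same places to the first 3 genes, Cacna1c, Cacnb3 and Cacna1d. Cacna1g stood before Cacna1a in SNc and after it in VTA, and Cacnb4 was in place 8 in SNc and place 10 in VTA.

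Cacna1d, the pacemaking L-type pore, was dim by every probe set. Its brightest, D38101_s_at, had a lowest, median and highest signal of 7.621, 25.62 and 66.47 in SNc, against 10.24, 17.77 and 53.36 in VTA. Most arrays of both regions lay below 26.3, and 3 SNc and 2 VTA arrays above it. SNc 7 and SNc 8 (48.65 and 66.47) and VTA 2 and VTA 8 (53.36 and 45.55) were the bright ones, so both regions held a few bright arrays and a larger number of dim ones. In the fit without the filter the difference was 0.18 (SE 0.26, 95% interval -0.37 to 0.73, limma adjusted p = 0.832). That interval leaves room for a difference of either sign on the log2 scale. On leaving out single arrays it was 0.05 without SNc 8, 0.09 without VTA 5, 0.10 without SNc 7 and 0.11 without VTA 3, and 0.29 without VTA 8, 0.31 without SNc 5 and 0.32 without VTA 2.

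The other probe sets of Cacna1d were dimmer still. M57682_at lay between 4.102 and 16.82 in SNc and between 1.696 and 13.53 in VTA. M99221_s_at lay between 1.814 and 14.82 in SNc and between 2.981 and 23.43 in VTA, U49126_s_at between 2.231 and 15.23 in SNc and between 2.688 and 20.84 in VTA, and U31772_s_at between 1.266 and 6.787 in SNc and between 2.345 and 5.727 in VTA. In 0 of the 15 arrays did any of these 4 exceed 26.3. Their log2 differences, SNc minus VTA, were 0.24 for M57682_at, -0.18 for M99221_s_at, -0.04 for U49126_s_at and -0.07 for U31772_s_at. The probe sets of Cacna1d thus did not share a sign. Their brightest arrays differed. M57682_at was brightest in SNc 7 and VTA 2, which were also bright for D38101_s_at, while U49126_s_at was brightest in SNc 5 and VTA 5, where D38101_s_at was dimmest. The array therefore gives no firm level for Cacna1d in either region, and a dim signal here does not show that the transcript was absent.

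Cacna1c, which encodes the other L-type pore, Cav1.2, was measured more firmly by its brightest probe set. M59786_at had a lowest, median and highest signal of 65.25, 101.0 and 145.5 in SNc, against 65.48, 107.4 and 111.9 in VTA. The regions overlapped almost fully, and the highest 2 values were in SNc. The difference was 0.08 (SE 0.17, 95% interval -0.27 to 0.43, limma adjusted p = 0.863), and -0.01 with VTA 5 and VTA 8 left out together. Of its dimmer probe sets, both left out by the filter, U31815_s_at averaged 26.85 ± 11.40 in SNc and 28.31 ± 9.738 in VTA. Its log2 difference was -0.05, so the probe sets of Cacna1c did not share a sign either. M89924cds_s_at averaged 8.573 ± 2.728 in SNc and 18.74 ± 11.17 in VTA (SD, n = 8 and 7). The last was the fourth probe set with an unadjusted p under 0.05 without the filter (log2 difference -0.45, SE 0.16, limma adjusted p = 0.212), with its brightest values, 38.25 and 29.48, in VTA 2 and VTA 4.

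**Figure D2:**
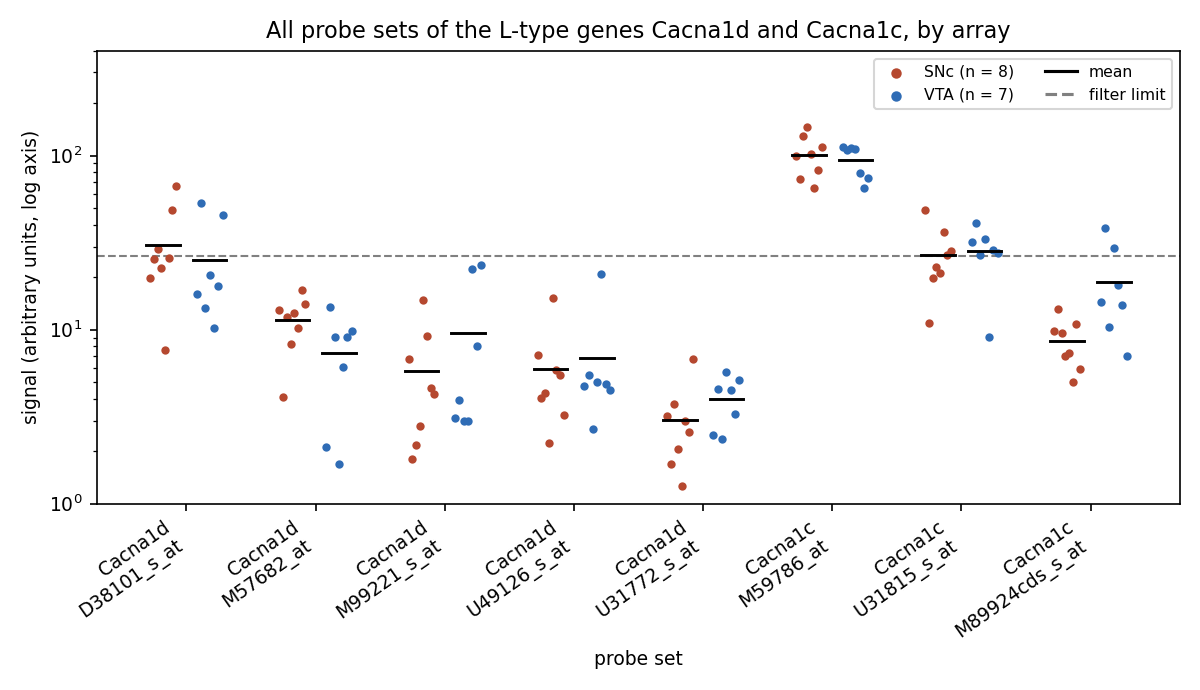
Signal (log axis, arbitrary units) of the 5 probe sets of Cacna1d and the 3 of Cacna1c on every array, with SNc (n = 8) left of VTA (n = 7), bars at the means and a dashed line at 26.3. M59786_at of Cacna1c lies above the line on all 15 arrays, D38101_s_at of Cacna1d on 5 of them, and the other Cacna1d probe sets on 0.

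Within each array, D38101_s_at of Cacna1d was also set against M59786_at of Cacna1c as a log2 difference. As D38101_s_at exceeded 26.3 on 5 of 15 arrays, this value does not measure the balance of the L-type pores. It ran from -2.32 to -0.62 with a median of -1.40 in SNc, and from -2.12 to -0.56 with a median of -1.77 in VTA. The region means differed by 0.10 (exact permutation over 6435 splits, two-sided p = 0.761), and by -0.01 without SNc 7, -0.01 without SNc 8 and -0.01 without VTA 3. D38101_s_at was the dimmer of both, so the offset damps it more, and nothing is read from the overlap of the regions.

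The 5 genes whose brightest probe set followed D38101_s_at of Cacna1d most closely over the 15 arrays, among 3221, were Prpsap1 (Pearson r = 0.834), Crot (0.811), B4galt6 (0.794), Htr3a (0.793) and Arrdc1 (0.770). These are descriptions over arrays that share a scaling and may share steps such as amplification, from a probe set near the dim end. Htr3a encodes a serotonin-gated ion channel and Crot a peroxisomal enzyme of fatty acid handling. Their own region means were close, such as 228.0 in SNc and 221.0 in VTA for Htr3a. Of the calcium channel genes, Cacnb3 followed it most closely, at 0.229, and Cacna1e least, at -0.446. Cacna1e was dimmest in SNc 8, VTA 8 and SNc 7, which are among the 4 arrays where D38101_s_at was brightest.

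Cacna1b and Cacna1a, pores of presynaptic release channels, were brighter than M59786_at of Cacna1c only by their brightest probe sets (means over all arrays 352.2, 156.3 and 97.88). Their other probe sets were dimmer than M59786_at, at 79.6 for Cacna1b and 41.89, 20.08 and 6.103 for Cacna1a. For Cacna1b, the N-type pore Cav2.2, the probe sets gave different pictures. AF055477_at had a lowest, median and highest signal of 178.6, 364.4 and 510.7 in SNc, against 234.4, 340.3 and 462.0 in VTA. The SNc arrays thus spanned the whole VTA range, and the difference was 0.07 (SE 0.20, 95% interval -0.36 to 0.49, limma adjusted p = 0.913).

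The dimmer probe set of Cacna1b, M92905_s_at, had a lowest, median and highest signal of 21.56, 45.99 and 149.6 in SNc, against 65.68, 104.2 and 148.9 in VTA. Most SNc arrays were low, with 5 of 8 under the lowest VTA array, but SNc 7 was as bright as the brightest VTA array. The difference was -0.70 (SE 0.26, 95% interval -1.24 to -0.16), the largest in size of the 12 tested, and missed the threshold (limma adjusted p = 0.19). It passed in 1 alternative, without SNc 7 (-0.87, adjusted p = 0.0406), and missed in the other 25 (adjusted p up to 0.327). Within arrays, AF055477_at minus M92905_s_at was 2.38 ± 0.67 in SNc and 1.62 ± 0.54 in VTA on the log2 scale (SD, n = 8 and 7), ranging from 1.52 to 3.13 in SNc and from 1.06 to 2.37 in VTA. This difference between probe sets was not tested. It was described after the values were seen, and what part of the transcript each probe set reads is not given in the sources used here.

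Cacna1a, the P/Q-type pore Cav2.1 that triggers transmitter release at many synapses, had 4 probe sets. The brightest, rc_AI229031_s_at, had a lowest, median and highest signal of 101.5, 138.1 and 217.8 in SNc, against 106.5, 184.9 and 237.6 in VTA. Only SNc 7 exceeded the VTA mean among the SNc arrays, while VTA 2 and VTA 5 lay among the lower SNc values. The difference was -0.22 (SE 0.18, 95% interval -0.59 to 0.15, limma adjusted p = 0.59). AF051526_at averaged 40.06 ± 16.77 in SNc and 43.98 ± 13.88 in VTA (SD, n = 8 and 7), with a difference of -0.13 (SE 0.20). M99222_s_at averaged 18.72 in SNc and 21.63 in VTA and AF051527_s_at 5.840 in SNc and 6.403 in VTA, both left out by the filter. All 4 probe sets had a negative difference and 0 passed.

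Cacna1e, the R-type pore Cav2.3, was near the dim end by its only probe set. L15453_at had a lowest, median and highest signal of 8.324, 35.83 and 41.07 in SNc, against 11.76, 27.39 and 43.98 in VTA. In SNc, 6 arrays lay close together between 31.15 and 41.07, and SNc 7 and SNc 8 were far below. The mean was 30.11 in SNc and 25.72 in VTA, so this probe set also passed the filter through SNc. The difference was 0.13 (SE 0.21, 95% interval -0.32 to 0.58, limma adjusted p = 0.818). On leaving out 1 array it ran from 0.04 without VTA 8 to 0.26 without SNc 8, and it was -0.01 with VTA 5 and VTA 8 left out together.

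Cacna1g, the T-type pore Cav3.1 that opens near the resting voltage, was the steadiest of the genes. AF027984_at had a lowest, median and highest signal of 148.8, 161.2 and 199.5 in SNc, against 143.0, 153.9 and 197.6 in VTA. No array of either region stood apart. The difference was 0.06 (SE 0.12, 95% interval -0.19 to 0.32, limma adjusted p = 0.849), the narrowest interval of the 12 tested probe sets.

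**Figure D3:**
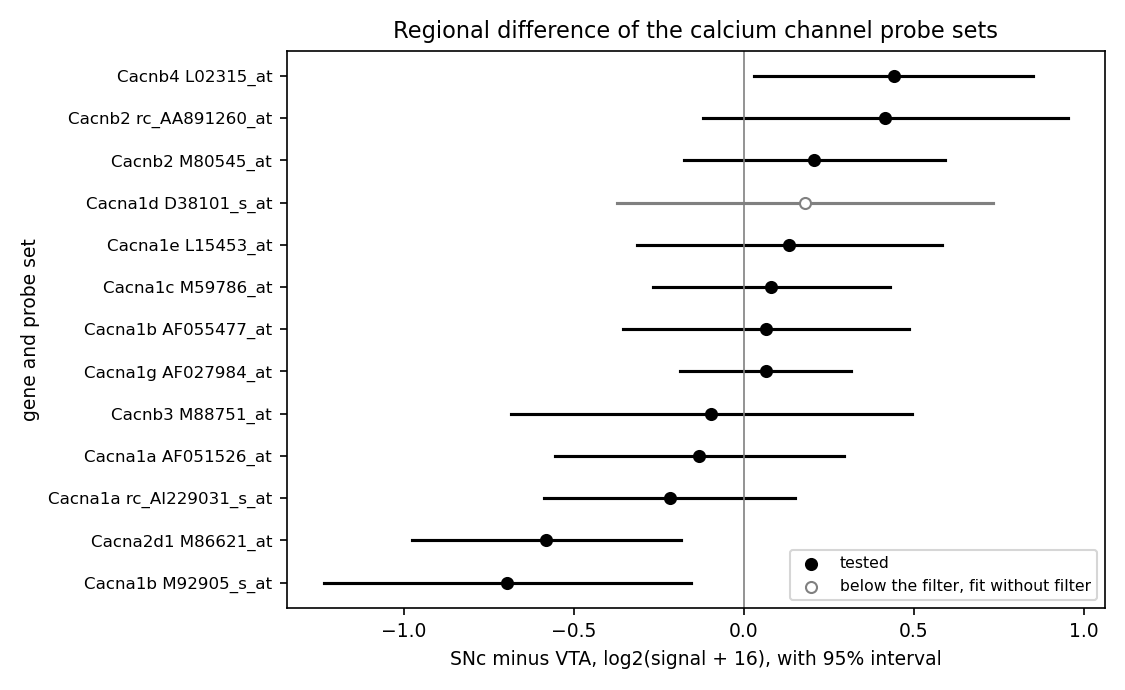
Difference of SNc minus VTA on the log2(signal + 16) scale with its 95% interval from limma for the 12 tested probe sets (filled) and for D38101_s_at of Cacna1d from the fit without the filter (open). The intervals of Cacnb4, Cacna2d1 and M92905_s_at of Cacna1b exclude 0 before adjustment, and 0 of the 12 passed after it.

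Among the auxiliary subunits, Cacna2d1 was the brightest of all the genes and had the smallest p of the 12. The alpha2delta-1 protein it encodes moves calcium channels to the membrane and to release sites. M86621_at had a lowest, median and highest signal of 421.4, 514.8 and 824.9 in SNc, against 540.5, 806.0 and 1405 in VTA. Of the SNc arrays 4 lay under the lowest VTA array and 0 reached the VTA mean, though SNc 5 exceeded the VTA median. The mean was 555.3 ± 132.4 in SNc and 855.3 ± 280.4 in VTA (SD, n = 8 and 7). The log2 difference was -0.58 (SE 0.19, 95% interval -0.98 to -0.19), and it missed the threshold (unadjusted p = 0.00615, limma adjusted p = 0.126). VTA 5 had the highest value, 1405, and the lowest correlation with the other arrays. Without VTA 5 the difference was -0.45 (adjusted p = 0.203), and with VTA 5 and VTA 8 left out together -0.38 (adjusted p = 0.311). The difference was negative in all 26 alternatives, with an adjusted p from 0.0703 to 0.311.

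The beta subunits had 4 tested probe sets, of which 0 passed, with 3 positive differences and 1 negative. Cacnb4, the beta4 subunit, had a lowest, median and highest signal of 21.66, 33.38 and 69.04 in SNc, against 3.181, 26.15 and 30.76 in VTA by L02315_at. In SNc, 6 of 8 arrays exceeded the highest VTA array, while all VTA arrays lay under the SNc mean. The highest SNc value, 69.04 in SNc 6, and the lowest VTA value, 3.181 in VTA 8, stood apart from the others. The log2 difference was 0.44 (SE 0.20, 95% interval 0.03 to 0.85) and missed the threshold (unadjusted p = 0.037, limma adjusted p = 0.283). The signal was at the filter limit, with 3 of 7 VTA arrays over 26.3, and the difference was 0.20 with an offset of 64 and 0.78 with an offset of 1. Without VTA 8 it was 0.28 (adjusted p = 0.427).

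Cacnb2, the beta2 subunit, had positive differences by both probe sets. Its brighter, rc_AA891260_at, had a lowest, median and highest signal of 215.3, 261.0 and 344.1 in SNc, against 62.15, 221.9 and 340.9 in VTA. The VTA arrays spread far more than the SNc arrays, with VTA 8 at 62.15, VTA 3 at 129.1 and VTA 1 at 196.2 under all SNc values and VTA 4 and VTA 5 near the SNc maximum. The difference was 0.42 (SE 0.26, 95% interval -0.12 to 0.95, limma adjusted p = 0.465), and 0.18 without VTA 8. M80545_at averaged 92.33 ± 25.91 in SNc and 78.48 ± 24.23 in VTA (SD, n = 8 and 7; log2 difference 0.21, SE 0.18).

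Cacnb3, the beta3 subunit, had a lowest, median and highest signal of 39.09, 48.13 and 91.45 in SNc, against 5.346, 69.25 and 96.27 in VTA by M88751_at. Apart from VTA 5, at 5.346, the VTA arrays lay between 54.41 and 96.27, where only 3 SNc arrays reached. The difference was -0.10 (SE 0.28, 95% interval -0.69 to 0.49, limma adjusted p = 0.907). It was -0.40 without VTA 5 (adjusted p = 0.278).

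**Figure D4:**
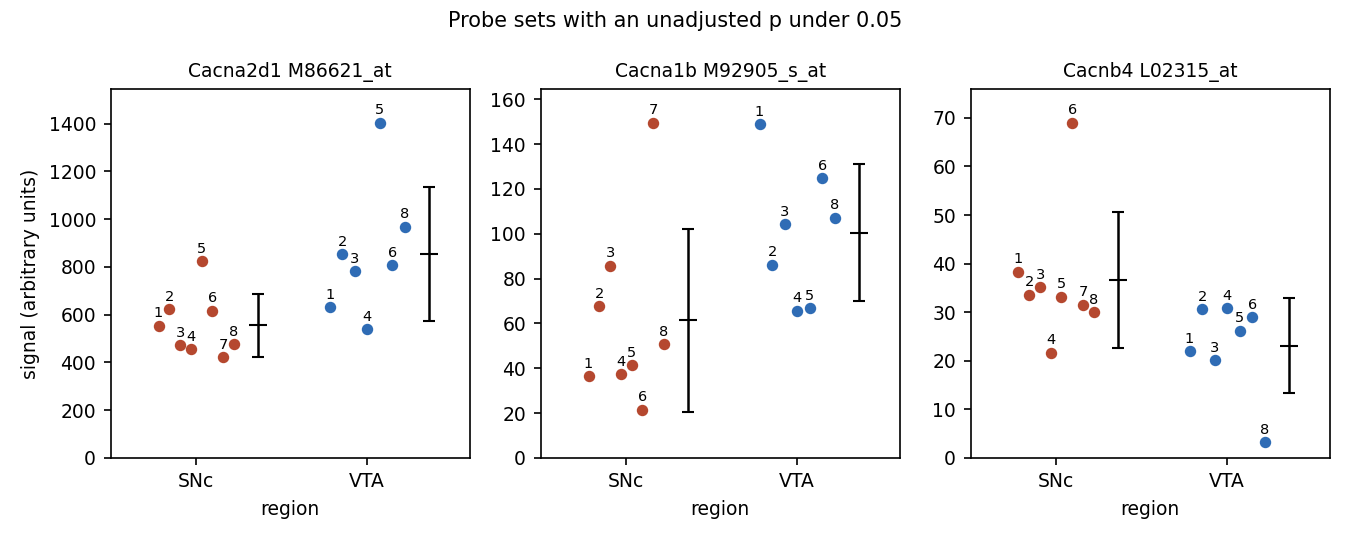
Signal (linear axis from 0, arbitrary units) on each array for the 3 tested probe sets with an unadjusted p under 0.05, each array marked by its number, with the mean ± SD at the right of each region (n = 8 SNc and 7 VTA). VTA 5 is the highest point for Cacna2d1, SNc 7 lies with the VTA arrays for M92905_s_at of Cacna1b, and SNc 6 and VTA 8 stand apart for Cacnb4.

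Other subunits of the family, from a list of 16 further calcium channel genes, had probe sets for 4, and 0 of the 3 tested were called (1.98% of all probe sets tested). Cacnb1, the beta1 subunit, averaged 107.5 ± 17.74 in SNc and 124.8 ± 20.51 in VTA, with a difference of -0.19 (SE 0.14). Cacng1, a gamma subunit of skeletal muscle, differed by 0.02 (SE 0.14), and Cacna1h, the T-type pore Cav3.2, by 0.00 (SE 0.30). Cacna1s, the skeletal muscle L-type pore, was left out by the filter and averaged 8.860 in SNc and 9.078 in VTA.

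Proteins that bind calcium channels or modulate them, a list of 32 genes, had 22 with a probe set and 15 tested. Of these, limma called 0 (1.98% of all probe sets tested), and 0 had an unadjusted p under 0.05 (15.4% of all tested). The median log2 difference was 0.11. Vsnl1, a neuronal calcium sensor, averaged 1081 ± 239.5 in SNc and 839.0 ± 225.0 in VTA, a log2 difference of 0.37 (SE 0.19, limma adjusted p = 0.366). Camk2d, a subunit of the calcium/calmodulin kinase, differed by 0.26 (SE 0.17), and Gnao1, a G protein alpha subunit of inhibitory receptors, by 0.21 (SE 0.15).

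Channels that take part in pacemaking beside the calcium channels, a list of 29 genes, had 17 with a probe set and 14 tested. Of these 0 were called, where limma called 1.98% of all probe sets tested. An unadjusted p under 0.05 by limma was found for 5, where 15.4% of all tested had one. The median log2 difference was -0.10. Kcnn1, a small-conductance potassium channel opened by calcium, averaged 60.23 ± 15.27 in SNc and 85.45 ± 10.49 in VTA, a log2 difference of -0.43 (SE 0.14, limma adjusted p = 0.127). Scn1a, a sodium channel pore, averaged 181.1 ± 31.10 in SNc and 128.0 ± 39.15 in VTA, a log2 difference of 0.48 (SE 0.17, limma adjusted p = 0.168). Abcc8, the sulfonylurea receptor of ATP-sensitive potassium channels, differed by -0.39 (SE 0.15, limma adjusted p = 0.214).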

How the data were processed

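Total RNA of laser-captured neurons was measured on an Affymetrix rat array. The deposited values are 1 linear intensity per probe set and array. On all 15 arrays their 2% trimmed mean was 150.2, so by the values the authors had scaled the arrays before deposit. The sources used here do not give the software or the background correction. Detection calls were not used. Of 8799 probe sets, 59 controls were left out; by the platform annotation, 7006 of the remaining 8740 have a single symbol, 308 several and 1426 none. Gene identifiers of 6985 were found in a rat table of assembly GRCr8, which changed 0 symbols.

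The log2(intensity + 16) values, with the lowest 40% of probe sets by mean left out, were fitted with limma 3.58.1 in R 4.3.3 (lmFit, eBayes, two-sided). The procedure was tested on simulated data. The brightest probe set stood for a gene in lists. Since the filter left out Cacna1d, its difference comes from the same fit on all 8740 probe sets. Precision is limited by the number of arrays. The calcium channel genes and the gene lists were chosen with earlier results of these data known. Named were all 10 genes, the 3 members of each list with the smallest p, as 0 were called, and the 5 genes most like Cacna1d. Alternatives were offsets of 1 and 64, median centring, quantile normalization, a 60% filter or none, the replicate number as a block, a trended and robust variance, array weights, an exact Wilcoxon test and leaving out each array. Leaving out VTA 5 and VTA 8 together was added after the data were seen.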

Additional observations from a re-analysis of the deposited data

Results flagged for a closer look

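Single arrays stood apart from the others of their region in 6 of the 42 sets of values examined (21 probe sets in SNc and in VTA), where chance gives about 1 in 20. An array was counted when its gap to the nearest other array, on the log2(signal + 16) scale, took a share of the region's range above Dixon's 95% critical value. VTA 5 accounted for 3 of them. Cacnb3 was 5.346 in VTA 5, against 54.41 to 96.27 in the other VTA arrays. U31815_s_at of Cacna1c was 9.053 in VTA 5, against 26.86 to 40.85. U49126_s_at of Cacna1d was 20.84 in VTA 5, against 2.688 to 5.468, and it was also high in SNc 5, at 15.23 against 2.231 to 7.099 in the other SNc arrays. Cacnb4 was 69.04 in SNc 6, against 21.66 to 38.31 over the rest of SNc. It was 3.181 in VTA 8, against 20.16 to 30.76 over the rest of VTA. VTA 5 held the highest or the lowest value of its region in 10 of the 21 probe sets, closely followed by VTA 2 with 9 and SNc 5 with 8.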

How the results depend on the processing

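The count of calcium channel probe sets called was 0 in 25 of 26 alternatives and 1 without SNc 7, and ran from 0 to 1 on leaving out 1 array. The count over all probe sets, 104, was 60 with an offset of 1, 184 with array weights and 67 by the exact Wilcoxon test, and ran from 56 to 115 on leaving out 1 array, with a change of over 1.5 times in 8 of 15. Over the 12 tested probe sets, 301 of 308 alternatives kept the sign and the side of the threshold. The exceptions were the call of M92905_s_at without SNc 7 and 6 changes of sign in differences near 0: Cacnb3 was 0.0168 with an offset of 1 and 0.0035 without VTA 3, AF055477_at of Cacna1b -0.011 without SNc 3 and -0.0138 without VTA 3, and with VTA 5 and VTA 8 left out together, Cacna1e -0.0128 and M59786_at of Cacna1c -0.0081. The cause was not tested. On leaving out 1 array, AF055477_at ran up to 0.194 and Cacnb3 down to -0.396. The difference of D38101_s_at of Cacna1d kept its sign in all 25 alternatives that gave it a value, from 0.0487 to 0.32 on leaving out 1 array. A 60% filter leaves it out. This holds for that probe set and not for the gene, whose probe sets differed in sign. That of Cacna1d over Cacna1c ran from -0.0117 to 0.254 on leaving out 1 array and was negative without SNc 7, SNc 8 or VTA 3. Median centring shifted the median of all differences by 0.0925 and left 7 of the 12 positive, as did quantile normalization.

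With the replicate number as a block over the 7 shared numbers, 99 probe sets were called, 0 of them of calcium channels, and Cacna1d over Cacna1c differed by -0.0117. With this block, Cacna2d1 differed by -0.531 (limma adjusted p = 0.0875) and M92905_s_at of Cacna1b by -0.875 (limma adjusted p = 0.067). The correlation of deviations of same-numbered arrays was positive in all 7 pairs (0.0439 to 0.254). It exceeded 0.1 in 5 of 7 pairs and was the best for both arrays in 1 pair. The labels do not say what the numbers mark, and these values do not settle whether they pair the arrays. The main fit used no pairing. Signals near 26.3 limit what can be said of Cacna1d, Cacna1e and Cacnb4.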
